A study of Homo sapiens with 17 samples.

Results

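The mRNA levels of 10 cathepsin genes were examined in SW480 human colon cancer cells with and without depletion of mutant p53 (mutp53), before and after chronic TNF-α signaling. The genes were CTSS, CTSA, CTSB, CTSC, CTSD, CTSH, CTSK, CTSL, CTSO and CTSZ, taken by symbol from the 26457 genes listed in the mRNA-seq table. CTSS was chosen by its measured values, namely its induction by TNF-α and the difference of that induction between the cell lines, so its values are given as a description with no test. The other 9 belong to the same family but are not all of it, and they were chosen with earlier results of these data known. Of the 10 genes, 9 had a mean of at least 2.5 normalized reads and were tested, and CTSO was below that level.

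SW480 cells stably carried a doxycycline-inducible short hairpin RNA against LacZ (control cells) or against p53 (mutp53-depleted cells). All of these cells were grown with doxycycline at 1 μg/ml and puromycin at 1.5 μg/ml, so the control cells received both agents too. Cells were harvested without TNF-α (0 h, called untreated) or with TNF-α at 12.5 ng/ml for 16 h (called treated), which gave 4 groups. Each group had 2 biological replicates, A and B, whose poly(A) RNA was sequenced in strand-specific libraries. Each hairpin was represented by a single line, and whether a line was 1 clone is not given in the sources used here, so the hairpin and the line cannot be told apart.

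Cathepsins are proteases that mostly work in lysosomes, where they mature from inactive precursors. Most of these genes encode cysteine proteases, which are held in check by the cystatin family, whereas CTSD encodes an aspartic protease and CTSA a serine carboxypeptidase. Cathepsins are also known to be secreted by tumor cells and to cut extracellular matrix. CTSS stands apart in that it stays active at neutral pH and is best known from antigen-presenting cells, where it cuts the invariant chain of MHC class II.

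Values are normalized reads, that is, reads on the exons of a gene brought to an equal total in every library by scaling. Each library held 6108488 to 13809578 reads on genes, and 1 read was worth 0.67 to 1.51 normalized reads. Counting noise alone did not account for the spread between replicates, whose chi-square per gene was 2.07 to 3.93. Tests were made with limma on log2(normalized reads + 1), and a gene was called higher or lower at a Benjamini-Hochberg adjusted p under 0.05 over the 14800 genes tested. Fold changes on this scale understate those of genes with few reads. A second rule also asked for a change of at least 2-fold. Each p-value rests on 2 replicates a group and a spread shared among groups, and the comparisons share groups, since control cells at 0 h enter both the TNF-α response of control cells and the depletion at 0 h. RNA was taken from whole cultures, so fewer cells expressing a gene and less RNA per cell cannot be told apart.

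Promoter sequences are shown for the cathepsins that moved in different ways, as upstream sequence is a feature that the choice of members did not use. Of the 10 cathepsins, 6 had an entry among the RefSeq promoters of GRCh38.p14, which run from 250 bases before to 50 bases after the start of the gene. The 150 bases just before the start are printed 5′ to 3′ on the strand of the gene, for CTSA (lower after depletion, higher with TNF-α), CTSD and CTSZ (lower in both comparisons), CTSC (lower after depletion, not called with TNF-α) and CTSL (not called after depletion). Capitals mark the palindrome CACGTG, the E-box that is the core of the element known from promoters of lysosomal genes. The windows were chr20:45891185-45891334 on the plus strand (CTSA), chr11:1763928-1764077 on the minus strand (CTSD), chr20:59007255-59007404 on the minus strand (CTSZ), chr11:88337737-88337886 on the minus strand (CTSC) and chr9:87725969-87726118 on the plus strand (CTSL).
CTSA: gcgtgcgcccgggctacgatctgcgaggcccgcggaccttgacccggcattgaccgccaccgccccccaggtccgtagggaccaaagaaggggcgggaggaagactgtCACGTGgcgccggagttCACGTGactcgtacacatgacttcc
CTSD: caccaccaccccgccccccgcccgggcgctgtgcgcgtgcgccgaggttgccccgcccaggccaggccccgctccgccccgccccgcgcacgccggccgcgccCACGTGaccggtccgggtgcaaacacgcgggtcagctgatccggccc
CTSZ: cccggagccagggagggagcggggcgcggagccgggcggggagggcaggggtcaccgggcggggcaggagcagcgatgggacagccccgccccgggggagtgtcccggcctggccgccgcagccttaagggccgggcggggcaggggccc
CTSC: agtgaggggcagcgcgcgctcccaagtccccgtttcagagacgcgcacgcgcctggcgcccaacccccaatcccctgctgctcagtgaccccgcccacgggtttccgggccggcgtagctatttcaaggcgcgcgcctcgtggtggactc
CTSL: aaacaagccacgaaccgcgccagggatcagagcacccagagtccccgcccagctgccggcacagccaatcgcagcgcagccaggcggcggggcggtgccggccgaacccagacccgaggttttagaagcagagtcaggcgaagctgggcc
CTSA held 2 copies of the E-box, which began 42 and 25 bases before the start, and CTSD held 1, which began 47 bases before it. CTSC, CTSH, CTSL and CTSZ held none in their whole windows. Of all 35116 promoters of the same length, 7.26% held at least 1 such E-box and 0.664% held 2 or more. The letters TGANTCA, the AP-1 motif, were looked for on both strands and occurred in none of the 6 promoters, against 7.71% of all promoters. The GC box GGGCGG occurred in all 6, from 1 copy in CTSC to 6 in CTSZ, where its first copy began 223 bases before the start, and in 44.9% of all promoters. The E-boxes of CTSA and CTSD overlapped none of their GC boxes. These are matches of letters chosen with the expression results known, and binding at them was not measured here.

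Cathepsin mRNA in untreated control cells came mostly from 4 genes. Per kilobase of exon, CTSZ was the highest, at 4766 ± 204 normalized reads per kb (SD, n = 2), then CTSD at 3664 ± 28.0, CTSB at 1494 ± 130 and CTSA at 1386.5 ± 20.3. CTSC and CTSL followed at 446 ± 33.7 and 309 ± 28.8, CTSH was at 40.1 ± 2.99, CTSK at 9.62 ± 4.08, CTSS at 0.917 ± 0.796 and CTSO at 0.125 ± 0.177. No neighbours in this order overlapped in their libraries at 0 h in control cells. The order changed with TNF-α. In control cells at 16 h, CTSB (2627 ± 199 per kb), CTSD (2575 ± 219) and CTSZ (2407 ± 219) were the highest and overlapped, and CTSS had moved from the ninth to the seventh place, at 160 ± 9.35.

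In mutp53-depleted cells the order at 0 h was CTSZ (2127 ± 242 per kb), CTSB (1513 ± 164), CTSD (1100.3 ± 131) and CTSA (729 ± 57.7), and CTSL (263 ± 17.4) stood above CTSC (183 ± 29.1). The libraries of CTSS (7.85 ± 1.16), CTSK (6.39 ± 1.49) and CTSH (5.76 ± 0.231) overlapped from one to the next. At 16 h CTSB led, at 2231.5 ± 193 per kb, followed by CTSZ at 1442 ± 46.4, while CTSA (883 ± 88.4) and CTSD (851 ± 63.3) overlapped. CTSB thus made up 12.3% of the per-kb signal of the 10 genes in untreated control cells, 25.5% in treated control cells, 25.5% in untreated mutp53-depleted cells and 37.0% in treated mutp53-depleted cells. CTSD made up 30.2% in untreated control cells, 18.5% in untreated mutp53-depleted cells and 14.1% in treated ones. All 10 genes together took 0.256% to 0.283% of the reads on genes in the control libraries and 0.137% to 0.180% in the mutp53-depleted libraries, and the ranges did not overlap.

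**Figure D1:**
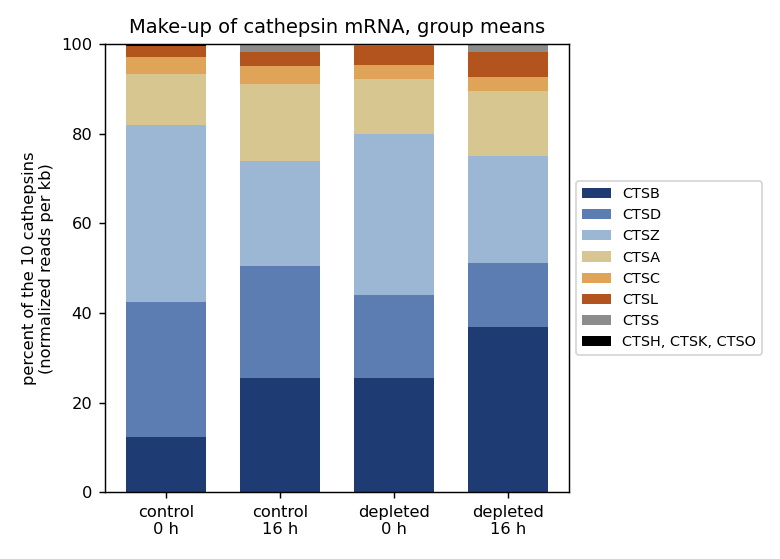
Stacked bars give the percent that each cathepsin made up of the normalized reads per kb of all 10 genes, from the mean of 2 libraries in each of the 4 groups. CTSB made up 12.3% in the first bar and 37.0% in the last, and CTSD 30.2% and 14.1%.

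CTSS had 1.45 and 6.06 normalized reads in untreated control cells, 684 and 630.2 in treated control cells, 35.5 and 28.8 in untreated mutp53-depleted cells, and 498 and 316 in treated mutp53-depleted cells. The 4 groups did not overlap. CTSS was thus almost silent in unstimulated control cells, low in unstimulated mutp53-depleted cells and well expressed in both lines with TNF-α. The ratio of the group means was 175 with TNF-α in control cells (95% interval 103 to 614) and 12.7 in mutp53-depleted cells (10.0 to 16.4). Depletion went with a mean 8.56 times that of control cells at 0 h (4.96 to 31.8) and 0.619 times at 16 h (0.585 to 0.700). These intervals were made from the reads of both libraries of a group pooled, which weighs the deeper library more. They are therefore not centred on the ratios of means, and they cover counting error only. The wide ones come from the 6 reads of CTSS, 2 and 4, in the control libraries at 0 h.

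On the log2(normalized reads + 1) scale CTSS responded to TNF-α by 7.31 in control and 3.59 in mutp53-depleted cells, each with a standard error of 0.34, and depletion differed from control by 2.99 at 0 h and -0.73 at 16 h. The difference of the TNF-α responses was -3.71 with a standard error of 0.48. By its construction it equals the depletion effect at 16 h (-0.73) less that at 0 h (2.99). With the 0 h control library A left out, the response of control cells was 6.54 and the difference was -2.95, and without library B they were 8.07 and -4.48. CTSS is at chr1:150702672-150738433 on the minus strand in hg19, the build of the deposited table.

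**Figure D2:**
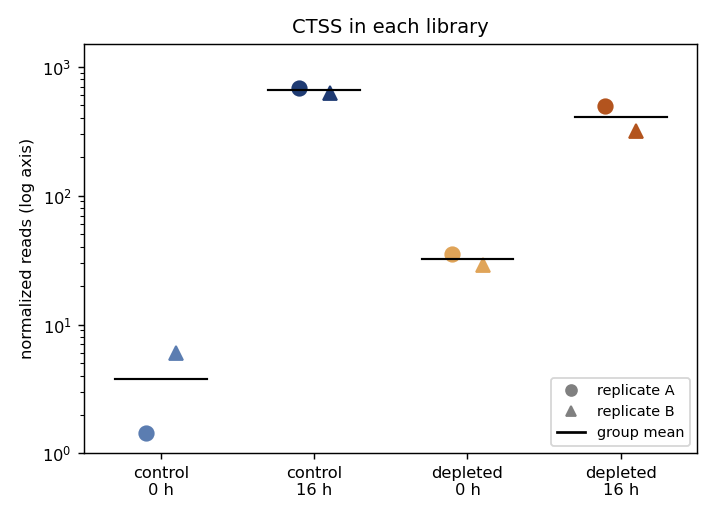
Points give the normalized reads of CTSS on a log axis in each library (circles, replicate A; triangles, replicate B) and lines give group means. The 0 h control libraries were at 1.45 and 6.06, below the 28.8 and 35.5 of the untreated mutp53-depleted cells, and all 16 h libraries were at 316 or above.

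Myeloid cells express much CTSS, so their markers were counted beside it. Of 10 myeloid markers, 8 had 3 reads or fewer in every library of a group in 3 of the groups, and 7 did in the treated mutp53-depleted cells. Their summed level was 27.3 to 40.65 normalized reads in untreated control cells, 24.2 to 41.6 in treated control cells, 24.7 to 33.5 in untreated mutp53-depleted cells and 39.5 to 41.1 at 16 h. PTPRC and TYROBP were at 0 in every library. The markers within this sum differed, as ITGAM had 0 normalized reads in both untreated control libraries, 22.2 and 11.4 in treated control cells, 2.01 and 0 in untreated mutp53-depleted cells and 27.7 and 25.9 in treated ones. ITGAM was called higher with TNF-α in both lines (adjusted p = 8.4e-05 and 1.2e-04 with limma), and CD14 was called lower in control cells, by 1.21 on the log2 scale (adjusted p = 0.037). LYZ, at 1 to 23 reads a library, was called higher after depletion at 0 h, by 1.63 (adjusted p = 0.026 with limma). The summed level of 8 epithelial markers was 66178 to 70708 in untreated control cells, 56292 to 56382 in treated ones, 52455 to 52480 in untreated mutp53-depleted cells and 42729 to 43897 in treated ones, with KRT20 at 0 in treated control cells. Within it, after depletion at 0 h, VIL1 differed by -5.49 on the log2 scale, EPCAM by -1.29, CDH1 by -0.815 and KRT19 by 0.26, all of them called (adjusted p = 6.2e-08, 2.4e-10, 5.5e-05 and 0.0030 with limma). With TNF-α in control cells CDH1 differed by -2.51, VIL1 by -2.10, CDX2 by -1.07 and KRT19 by 0.22, all of them called. The summed level of 6 fibroblast markers was 158 to 177 in untreated mutp53-depleted cells and 28.5 to 59.2 in the other groups. In the untreated mutp53-depleted cells COL1A2, COL3A1 and DCN were at 0. PDGFRB (69.7 and 69.9) and COL1A1 (88.5 and 105.6) made up most of the sum there. The part of these markers in the cathepsin values was not tested.

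The genes around CTSS on the chromosome were read in the same way. Within 300 kb of CTSS, 17 other genes were tested. Their TNF-α responses in control cells ran from -2.03 (ANXA9) to 1.04 (ADAMTSL4, adjusted p = 0.34 with limma) on the log2 scale, with a median of -0.08, and their depletion effects at 0 h had a median of 0.03. With TNF-α in control cells, where 11.1% of all genes were called higher and 15.2% lower, 6 of the 17 were called. MCL1 and CDC42SE1 were higher, by 0.32 and 0.33, and ANXA9, FAM63A, PRUNE and MLLT11 were lower. CTSK, the cathepsin next to CTSS at a distance of 30.3 kb, had 22.5 and 12.1 normalized reads in untreated control cells, 15.5 and 15.65 in treated control cells, 13.4 and 9.60 in untreated mutp53-depleted cells and 11.7 and 4.94 in treated ones. CTSK, known for its part in bone resorption, was not called in any comparison, with a TNF-α response of -0.08 in control cells (95% interval -1.05 to 0.88). At 4 to 31 reads a library, these values do not tell a change of CTSK within that interval from none. How large a change would have been called was not worked out. Its depletion effect at 16 h was -0.93 (adjusted p = 0.10 with limma) and was called, at -1.48 (adjusted p = 0.027), without library A of the treated mutp53-depleted cells, over a range of 0.027 to 0.58 among the alternatives.

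The pattern of CTSS over the 8 libraries was compared with that of the 1675 tested genes whose group means spanned at least 2 on the log2 scale. The 5 genes most like it, by Pearson r of log2(normalized reads + 1) over 8 libraries of 4 groups, were ABAT (r = 0.999), SGPP2 (0.994), CSF1 (0.991), SAA2 (0.987) and SAA1 (0.985). ABAT encodes GABA transaminase, SGPP2 a sphingosine-1-phosphate phosphatase, CSF1 the macrophage growth factor, and SAA1 and SAA2 serum amyloid A. All 5 were higher at 0 h in mutp53-depleted than in control cells, and their TNF-α responses on the log2 scale were 3.58 to 5.92 in control cells and 1.77 to 2.59 in mutp53-depleted cells. They were picked for their likeness to CTSS over the same libraries, so this shared pattern largely follows from the choice. SAA1 and SAA2 are near-identical copies whose reads the counting could have split between them. Among the other cathepsins r with CTSS was highest for CTSB (0.89) and lowest for CTSZ (-0.76).

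Depletion of mutp53 went with lower levels of most other cathepsins. At 0 h, 5 of the 8 tested were called lower (CTSA, CTSC, CTSD, CTSH and CTSZ), beside 25.2% of all genes, and 0 were called higher, beside 27.3%. At 16 h, 6 were called lower, the same 5 and CTSB, beside 26.5% of all genes, and 0 higher, beside 24.9%. With a change of at least 2-fold as well, 4 were called lower at 0 h and 4 at 16 h, beside 9.55% and 10.2% of all genes, and 0 were called higher, beside 5.89% and 5.03%. The median log2 fold change of the 8 was -1.05 at 0 h and -0.97 at 16 h, where that of all genes was 0.03 and -0.01.

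CTSD, the aspartic protease, had 7696 and 7779 normalized reads in untreated control cells, 5766.5 and 5112 in treated control cells, 2519.7 and 2128 in untreated mutp53-depleted cells and 1892 and 1703 in treated ones. Every mutp53-depleted library was below every control library. It was lower by depletion by 3.33-fold at 0 h and 3.03-fold at 16 h as ratios of means, with log2 fold changes of -1.74 and -1.60 (SE 0.08, adjusted p = 1.7e-11 and 4.1e-11 with limma). The 50 nearest tested genes on its chromosome had medians of -0.54 and -0.34 at the 2 times, and with these removed the log2 fold change of CTSD was -1.20 at 0 h and -1.26 at 16 h.

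CTSZ, a carboxypeptidase also called cathepsin X, had 7327 and 6896 normalized reads in untreated control cells, 3823 and 3360.3 in treated control cells, 3429 and 2919 in untreated mutp53-depleted cells and 2200.7 and 2103 in treated ones. Its libraries in untreated mutp53-depleted cells overlapped with those of control cells at 16 h, but within each time the lines did not overlap. CTSZ was 2.24-fold lower after depletion at 0 h and 1.67-fold lower at 16 h, with log2 fold changes of -1.17 and -0.74 (SE 0.08, adjusted p = 1.8e-09 and 6.2e-07 with limma).

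CTSA, which also protects the lysosomal enzymes NEU1 and GLB1, had 3113 and 3178 normalized reads in untreated control cells, 4134 and 3907 in treated control cells, 1747 and 1562 in untreated mutp53-depleted cells and 2145 and 1861 in treated ones. Every mutp53-depleted library was below every control library. The log2 fold changes of depletion were -0.93 at 0 h and -1.01 at 16 h (SE 0.08, adjusted p = 1.8e-08 and 6.1e-09 with limma). NEU1 had a depletion effect of -0.71 at 0 h (adjusted p = 6.5e-05), and -0.28 at 16 h (adjusted p = 0.063), and GLB1 had -0.17 at both times (adjusted p = 0.18 and 0.19 with limma).

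CTSC, which activates serine proteases of immune granules, had 892 and 801 normalized reads in untreated control cells, 776 and 757 in treated control cells, 387 and 309 in untreated mutp53-depleted cells and 369 and 327 in treated ones. The lowest control library was at 757 and the highest mutp53-depleted one at 387. Its depletion effects were -1.29 and -1.14 (SE 0.11, adjusted p = 1.2e-08 and 5.7e-08 with limma).

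CTSH, an aminopeptidase, was weakly expressed, with 55.9 and 62.1 normalized reads in untreated control cells, 43.5 and 28.45 in treated control cells, 8.71 and 8.23 in untreated mutp53-depleted cells and 10.1 and 14.8 in treated ones. The lines did not overlap at either time. By ratio of means CTSH was 6.97-fold lower after depletion at 0 h and 2.89-fold lower at 16 h, with log2 fold changes of -2.66 and -1.45 (SE 0.34, adjusted p = 2.9e-06 and 0.0015 with limma). It had 19 reads in all in untreated mutp53-depleted cells.

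**Figure D3:**
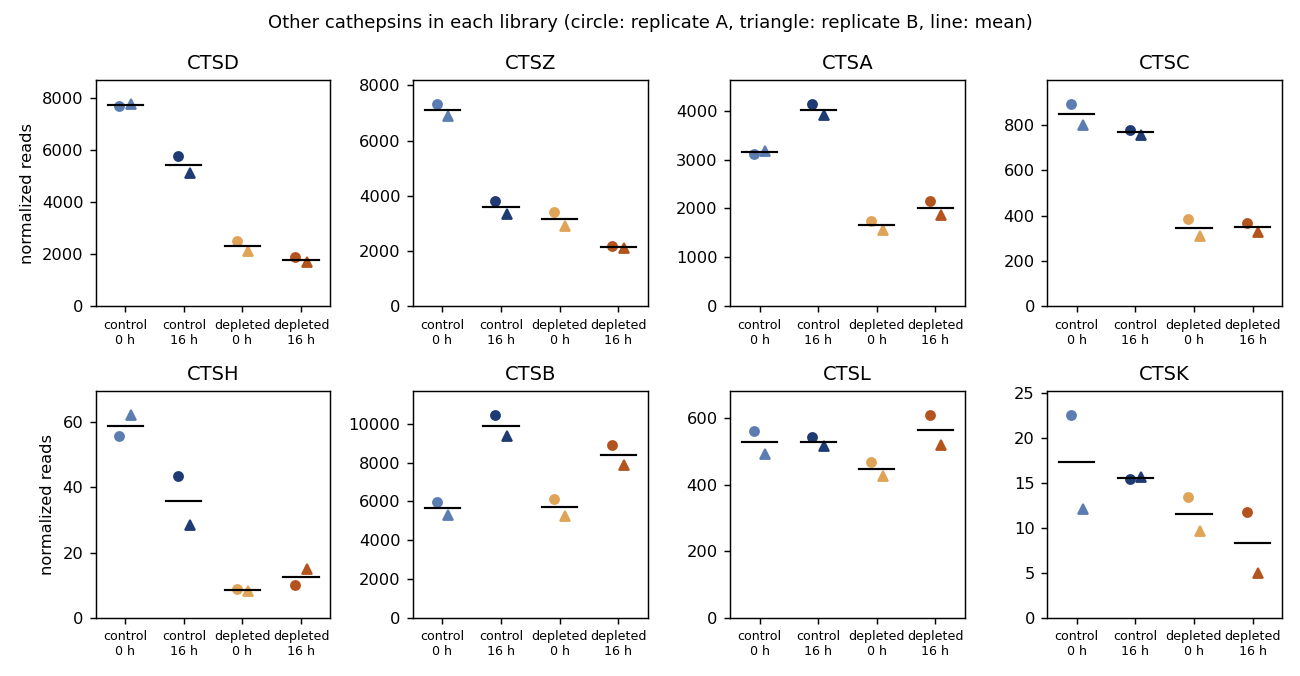
Points give the normalized reads of 8 cathepsins in each library (circles, replicate A; triangles, replicate B), with lines at the group means and each axis starting at 0. CTSD, CTSZ, CTSA, CTSC and CTSH were lower in the mutp53-depleted libraries than in the control libraries of the same time, and CTSB was higher at 16 h than at 0 h in both lines.

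CTSB and CTSL did not follow this pattern. CTSB had 5979 and 5287 normalized reads in untreated control cells, 10435 and 9374 in treated control cells, 6140.3 and 5267 in untreated mutp53-depleted cells and 8926 and 7899.5 in treated ones. The lines overlapped at 0 h, where the log2 fold change was 0.02 (95% interval -0.17 to 0.20, adjusted p = 0.89 with limma). At 16 h it was -0.24 (SE 0.09, adjusted p = 0.034 with limma). That call was lost with no filter on low values (adjusted p = 0.071), without control library A (0.23) or mutp53-depleted library B (0.30) at 16 h, where the log2 fold change was -0.16 and -0.15, and with the median of its neighbours removed (-0.04, adjusted p = 0.77). Over all alternatives its adjusted p ran from 0.0031 to 0.77.

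CTSL had 562 and 492 normalized reads in untreated control cells, 543 and 515 in treated control cells, 468 and 426 in untreated mutp53-depleted cells and 608 and 518 in treated ones. The lines overlapped at 16 h and lay apart at 0 h, though by less than the gap between the control replicates. Depletion effects were -0.23 at 0 h (95% interval -0.44 to -0.02, adjusted p = 0.057 with limma) and 0.09 at 16 h (-0.12 to 0.30, adjusted p = 0.50). The first was called with the median ratio scaling, by edgeR and without control library B at 0 h, and its adjusted p ran from 0.024 to 0.36 over the alternatives.

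**Figure D4:**
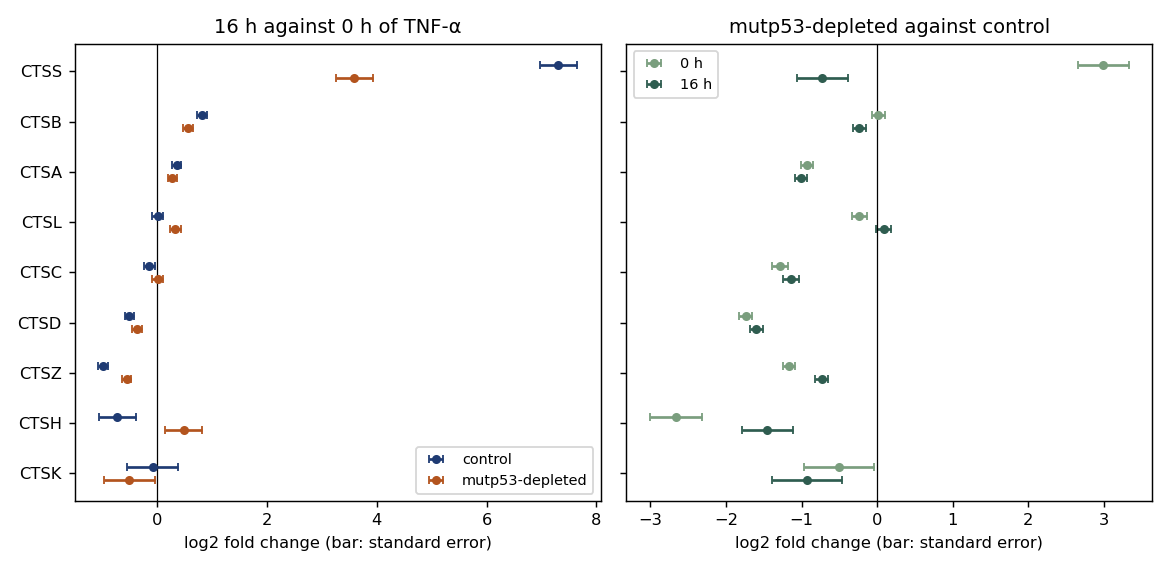
Points give log2 fold changes of 9 cathepsins with bars of 1 standard error, for 16 h against 0 h of TNF-α in control and mutp53-depleted cells (left) and for mutp53-depleted against control cells at 0 h and 16 h (right). CTSS was at 7.31 and 3.59 on the left, where the other 8 lay between -0.99 and 0.81, and CTSH had the lowest value on the right, -2.66.

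With TNF-α the other cathepsins were called in both directions. In control cells 2 of the 8 were called higher (CTSA and CTSB), beside 11.1% of all genes, and 2 lower (CTSD and CTSZ), beside 15.2%. In mutp53-depleted cells 3 were called higher (CTSA, CTSB and CTSL), beside 9.8% of all genes, and 2 lower (CTSD and CTSZ), beside 16.9%. With the 2-fold rule 0 were called in either direction in either line, beside 2.97% higher and 4.27% lower in control cells and 1.86% and 4.5% in mutp53-depleted cells, and the other 8 lay between -0.99 and 0.81 in control cells. The 8 had a median of -0.11 in control and 0.14 in mutp53-depleted cells, beside -0.05 and -0.06 for all genes.

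CTSB rose with TNF-α by 0.81 on the log2 scale in control cells (SE 0.09, adjusted p = 1.4e-06 with limma) and by 0.56 in mutp53-depleted cells (adjusted p = 1.1e-04), and in both lines its 16 h libraries were above its 0 h libraries. CTSA rose by 0.35 (SE 0.08, adjusted p = 0.0024) and 0.27 (adjusted p = 0.014). In mutp53-depleted cells the call on CTSA was lost without library B at 0 h (0.19, adjusted p = 0.21) or library A at 16 h (0.17, adjusted p = 0.22), over a range of 0.00115 to 0.22. CTSL, at 0.01 in control cells (95% interval -0.20 to 0.22), rose by 0.33 in mutp53-depleted cells (SE 0.10, adjusted p = 0.020 with limma), and that call was lost without the same 2 libraries (adjusted p = 0.18 and 0.24) and with the median of its neighbours removed (0.11), over a range of 0.0032 to 0.24.

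CTSZ fell with TNF-α by 0.99 on the log2 scale in control cells (SE 0.08, adjusted p = 3.9e-08 with limma) and by 0.56 in mutp53-depleted cells (adjusted p = 5.5e-05). CTSD fell by 0.51 in control cells (SE 0.08, adjusted p = 1.6e-04) and by 0.37 in mutp53-depleted cells (adjusted p = 0.0032). In mutp53-depleted cells the call on CTSD was lost without library A at 0 h (-0.25, adjusted p = 0.11) or library B at 16 h (-0.29, adjusted p = 0.066), over a range of 6.6e-05 to 0.11. CTSC was at -0.14 (95% interval -0.36 to 0.08) in control cells and 0.01 (-0.21 to 0.23) in mutp53-depleted cells and was called in neither. CTSH was at -0.73 in control cells (adjusted p = 0.13) and 0.48 in mutp53-depleted cells (adjusted p = 0.33), with standard errors of 0.34.

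Whether the response to TNF-α differed between the lines was tested as the response in mutp53-depleted cells less that in control cells. Of the 8 other cathepsins, 0 were called higher, beside 0.655% of all genes, and 0 lower, beside 2.21%. At an unadjusted p under 0.05 with limma there were 3, CTSZ, CTSH and CTSL. The share of all genes at that looser level was not counted, so the 3 cannot be weighed against it. The difference for CTSZ was 0.43 (SE 0.12, adjusted p = 0.056 with limma), which stands for a smaller fall in mutp53-depleted cells. It was called by edgeR (adjusted p = 0.037), by DESeq2 (0.030), with the median ratio scaling (0.045), with a pseudocount of 5 (0.043), with the median of its neighbours removed (0.032) and without library A of the treated control cells (0.027) or of the untreated mutp53-depleted cells (0.039), and its adjusted p ran from 0.0076 to 0.36 over the alternatives. The difference for CTSB was -0.25 (95% interval -0.52 to 0.01, adjusted p = 0.41), that for CTSH was 1.21 (SE 0.48, adjusted p = 0.24) and that for CTSL was 0.32 (SE 0.14, adjusted p = 0.31).

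CTSO, a little studied cysteine cathepsin, had 0 to 4 reads in each library and was not tested. Of 5 further cathepsin genes outside the 10, CTSV and CTSG were tested. CTSV, the closest relative of CTSL, had 269 and 239 normalized reads in untreated control cells and 141 and 134 in untreated mutp53-depleted cells. It was lower by depletion by 0.88 on the log2 scale at 0 h (SE 0.17, adjusted p = 2.4e-04 with limma) and by 0.80 at 16 h (adjusted p = 5.8e-04), and with TNF-α by 0.48 in control cells (adjusted p = 0.042), a call lost in 4 of the planned settings and without any 1 of 5 libraries. CTSG, at 0 to 10 reads a library, was not called, and CTSE, CTSF and CTSW were below the filter with 0 to 5 reads in each library.

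The cystatins inhibit cysteine cathepsins. Of 12 cystatin and stefin genes 9 were tested, and 5 were called lower and 0 higher after depletion at 0 h and again at 16 h. Of all genes, 25.2% were lower and 27.3% higher at 0 h, and 26.5% and 24.9% at 16 h. The medians of the 9 were -0.45 and -0.55, beside 0.03 and -0.01 for all genes. CST3, the secreted cystatin C and the most abundant at 5263 and 4825 normalized reads in untreated control cells and 2692 and 2415 in untreated mutp53-depleted cells, fell by 0.98 on the log2 scale at 0 h (adjusted p = 1.1e-07 with limma). CST5 had the largest difference, -4.15 at 0 h and -3.15 at 16 h (SE 0.27, adjusted p = 6.2e-10 and 1.9e-08). CSTB, CST1 and CST7 were the other called genes at 0 h. With TNF-α in control cells 11.1% of all genes were called higher and 15.2% lower. Of the 9, CST4 was called higher, by 3.20 (SE 0.79, adjusted p = 0.0055 with limma), and CST5 lower, by 0.96 (adjusted p = 0.013). The first call was lost without library A of either group and by edgeR, and the second without untreated library A or treated library B. In mutp53-depleted cells 0 of 9 were called by limma, beside 9.8% of all genes higher and 16.9% lower. By edgeR 1 was called lower, and with the median ratio scaling 1 was called higher. CST1, CST2 and CST4 are similar copies whose reads the counting could have split, and CST4 had at most 18.4 normalized reads in a library.

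Of 14 genes for the maturation and sorting of lysosomal enzymes, 7 were lower and 2 higher after depletion at 0 h, and 7 lower and 3 higher at 16 h, with medians of -0.17 and -0.15. Of all genes, 25.2% were lower and 27.3% higher at 0 h, and 26.5% and 24.9% at 16 h. LGMN, the protease legumain that matures several cathepsins, fell by 1.13 at 0 h and 0.93 at 16 h on the log2 scale (SE 0.14, adjusted p = 1.6e-06 and 1.6e-05 with limma). M6PR, the small mannose-6-phosphate receptor, rose by 0.63 and 0.87 (SE 0.08, adjusted p = 1.4e-06 and 2.2e-08). SORL1, a sorting receptor, had 1199 and 1422.5 normalized reads in untreated control cells, 1149 and 1135 in treated control cells, 1070.2 and 1063 in untreated mutp53-depleted cells and 544 and 471 in treated ones. Its TNF-α response differed between the lines by -0.88 (SE 0.13, adjusted p = 4.3e-04 with limma). SORL1 was the 1 gene called of the 14 in that comparison, beside 0.655% of all genes higher and 2.21% lower. With TNF-α in control cells 4 were lower and 0 higher, beside 15.2% and 11.1% of all genes, led by SCARB2, which fell by 0.72 (adjusted p = 5.1e-06). The number lower was 2 with the median ratio scaling, by DESeq2, without untreated control library B and without treated control library B, and 7 without untreated control library A. In mutp53-depleted cells 3 were lower and 2 higher, beside 16.9% and 9.8% of all genes. GGA3 had the largest value of those called higher, 0.26 (adjusted p = 0.031), and 0 were called higher with any 1 of the 4 mutp53-depleted libraries left out.

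Of 23 other lysosomal genes, 16 were lower and 3 higher after depletion at 0 h and 11 lower and 2 higher at 16 h, with medians of -0.36 and -0.32, beside the same 25.2%, 27.3%, 26.5% and 24.9% of all genes. GAA, the acid glucosidase, fell by 1.16 at 0 h and by 1.19 at 16 h on the log2 scale (SE 0.13, adjusted p = 6.0e-07 and 4.2e-07 with limma). MITF, a transcription factor of the family that binds the E-box, rose by 2.14 and 2.19 (SE 0.16, adjusted p = 4.9e-09 and 3.6e-09). Of its relatives, TFE3 rose by 0.57 at 0 h (adjusted p = 3.7e-06) and TFEB fell by 0.54 (adjusted p = 0.019). With TNF-α in control cells 1 was higher and 6 lower, beside 11.1% and 15.2% of all genes, and in mutp53-depleted cells 1 and 4, beside 9.8% and 16.9%. TFE3 was the gene called higher in both lines, by 0.68 and 0.52 (adjusted p = 1.1e-06 and 3.6e-05 with limma). The largest falls were those of LIPA in control cells (0.68, adjusted p = 0.0014) and of ASAH1 in mutp53-depleted cells (0.49, adjusted p = 0.0036). These numbers also depended on the method. In control cells 2 were lower by DESeq2 and 8 with the replicate block. In mutp53-depleted cells 1 was lower with the median ratio scaling, by edgeR or by DESeq2, and 2 with no filter or a pseudocount of 0.1. The number lower in control cells was 1 without untreated control library B and 2 without treated control library B, and that in mutp53-depleted cells was 0 without untreated library A or treated library B of these cells. After depletion at 16 h, 6 were lower without library B of the treated mutp53-depleted cells and 4 were higher without library A of the treated control cells. The TNF-α response was called different between the lines for 0 of the 23, beside 0.655% of all genes higher and 2.21% lower.

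Of 13 genes of the MHC class II pathway, in which CTSS acts, 8 were tested. CD74, the invariant chain that CTSS cuts, had 58.1 and 57.6 normalized reads in untreated control cells, 519 and 448 in treated control cells, 129 and 68.6 in untreated mutp53-depleted cells and 385 and 286 in treated ones. The 4 groups did not overlap. CD74 rose with TNF-α by 3.04 on the log2 scale in control cells (SE 0.21, adjusted p = 3.7e-09 with limma) and by 1.81 in mutp53-depleted cells (adjusted p = 4.1e-06). The difference of these responses was -1.23 (SE 0.30, adjusted p = 0.031). It was 1 of 2 such calls in the list, with RFX5 (-0.56), of which 0 or 1 were left without any 1 library and 0 by DESeq2. Of all genes, 0.655% were called higher and 2.21% lower in that comparison. CIITA, the master regulator of the pathway, rose by 2.62 and 2.22 (SE 0.57, adjusted p = 0.0018 and 0.0066), and HLA-DRA had 0 to 4.27 normalized reads in each library. Of the 8, 5 were higher and 1 lower with TNF-α in control cells and 2 higher and 1 lower in mutp53-depleted cells, RFXAP being the lower one in both (-0.96 and -0.79). Of all genes, 11.1% were higher and 15.2% lower in the first comparison, and 9.8% and 16.9% in the second. The 5 higher became 3 without untreated control library B or treated control library A. In mutp53-depleted cells the 2 higher became 1 without untreated library B or treated library A, and the 1 lower became 0 without untreated library A or treated library B. After depletion 2 were higher and 1 lower at 0 h, and 0 higher and 3 lower at 16 h, beside 27.3% and 25.2%, then 24.9% and 26.5%, of all genes, with IFI30, a lysosomal thiol reductase, lower by 1.04 and 1.39 (adjusted p = 6.6e-06 and 1.9e-07).

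**Figure D5:**
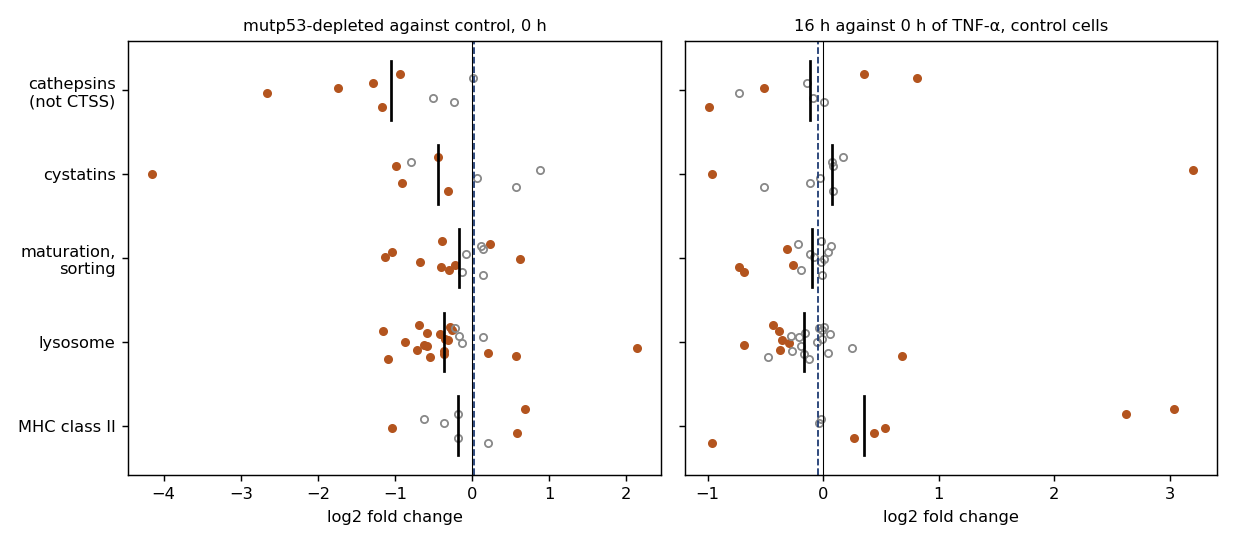
Each point is the log2 fold change of 1 gene of a list (filled, adjusted p under 0.05; open, not called), for mutp53-depleted against control cells at 0 h (left) and for TNF-α in control cells (right). Black bars give the median of each list and the dashed line that of all genes tested; the median of the cathepsins was -1.05 on the left and -0.11 on the right.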

How the data were processed

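The authors mapped 50-base single-end reads of dUTP libraries with STAR, counted reads on RefSeq exons by strand with HOMER, and deposited them as a normalized signal, with 1 factor per library. Versions are not given in the sources used here. The table's coordinates are those of hg19, whereas the paper and labels name hg38. Its Length column, which the authors deposited beside the values as another measure, gave levels per kb. Its 12 columns of the authors' comparisons (fold changes and p-values) were not used. Whole reads were recovered for 100% of the values of up to 100 reads, within 0.015 normalized reads. ChIP-seq and GRO-seq were not analysed here, and the level of the gene that the hairpin targets is not reported here.

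Samples were grouped by hairpin and hours of TNF-α, and replicate letters came from column names. Tests used limma 3.58.1 in R 4.3.3 with a pseudocount of 1 and a mean of at least 2.5, over 8 libraries in 4 groups, and were tested on simulated data. Since the deposited values are scaled, the planned limma test was kept, with count tests as alternatives. Alternatives were the median ratio scaling, pseudocounts of 0.1 and 5, a filter at a mean of 10 or none, a replicate block, edgeR 4.0.16, DESeq2 1.42.0 and each library left out. Removing the median of the 50 nearest genes was chosen after seeing the data. Members, gene lists and motifs were chosen with earlier results of these data known. Named genes were the members, the largest called change in each direction per list and comparison, genes within 300 kb of CTSS and the 5 genes most like CTSS. NEU1, GLB1, ITGAM, CD14, LYZ, VIL1, EPCAM, KRT8, KRT18, CDH1, CDX2, KRT19, PDGFRB and COL1A1 were given after their values were seen. So were TFEB, CST3, CSTB, CST1, CST7, CST2, HLA-DRA, RFX5 and further values of rule-named genes. Tables were made with pandas 2.3.3 in Python 3.11.15, intervals with scipy 1.17.1 and plots with matplotlib 3.10.9.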

Additional observations from a re-analysis of the deposited data

Results flagged for a closer look

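The TNF-α response of CTSS differed between the lines by -3.71 on the log2 scale (SE 0.48), being smaller in mutp53-depleted cells, where every library at 0 h was above every control library at 0 h and every library at 16 h was below every control library at 16 h. CTSS was chosen for this difference, so it was not tested.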

How the results depend on the processing

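No log2 fold change of a cathepsin changed direction while called. For the lists only the numbers of genes called were compared, so a change of direction could not have shown there. The difference of the TNF-α responses of CTSS was -4.10 with a pseudocount of 0.1, -2.85 with a pseudocount of 5, -4.09 with edgeR and -4.10 with DESeq2, and -4.48 to -2.95 with a library left out, the extremes being those without a 0 h control library, which held 2 and 4 of its reads. Of the other cathepsins, the number called with TNF-α in mutp53-depleted cells was 1 to 3 higher and 1 to 2 lower with a library left out. The response in mutp53-depleted cells less that in control cells was called higher for 0 of the other cathepsins in the reported test. That number was 1 with the median ratio scaling, a pseudocount of 5, the replicate block, edgeR, DESeq2 or the neighbours' median removed. With a library left out it was 0 to 1. The gene was CTSZ, whose fall with TNF-α was smaller in mutp53-depleted cells. With no filter 1 was called higher after depletion at 0 h, CTSO, on 7 reads against 1. The reported test did not pair the libraries by replicate letter. Deviations of same-letter libraries correlated at -0.04 to 0.12 over 6 pairs of groups. Such values cannot show whether A and B were handled as pairs. The block called CTSL lower after depletion at 0 h (adjusted p = 0.026 with limma) and CTSZ different between the lines (0.0076), both not called without it. Depth limited CTSH, CTSK, CTSO and the 0 h level of CTSS.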
